A study of Mus musculus with 18 samples.

Results

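The genes that turn glucose into pyruvate and burn it in mitochondria were followed as a list of 43 mouse genes, chosen by symbol for glucose transport, glycolysis, lactate handling, pyruvate import and oxidation, the tricarboxylic acid (TCA) cycle and the transaminases of the malate-aspartate shuttle. For each gene, the peak annotated to its promoter with the highest sum over the 6 RNA polymerase II libraries was taken. Such a peak was found for 40 of the 43 genes, out of 13979 gene symbols with a promoter peak in the series. *Pdhx*, *Mdh1* and *Pfkfb2* had none. The 40 genes carried 104 promoter peaks in all, 14 genes had a single peak and *Idh2* had the most, with 8.

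The data are single-end ChIP-seq libraries of ventricular chromatin from adult mouse hearts, made with antibodies against Polr2a, the catalytic subunit of RNA polymerase II (Pol II), and against CTCF, a DNA-binding protein that organises chromatin loops and served the study as a positive control. Hearts came from 3 genotypes. These were WT, *Trdn-as* KO, in which a polyadenylation site placed by Cas9 in the first exon of the antisense transcript *Trdn-as* cuts that transcript short on both alleles, and *Mettl3* KO, written in the labels as Mettl3lox/lox:alphaMHC-MerCreMerpos. In the last line, tamoxifen switches on a Cre recombinase that the alphaMHC promoter drives in cardiomyocytes, so that the other cells of the ventricle keep *Mettl3*, the gene of an RNA adenosine methyltransferase. The labels call all controls WT, whereas the study's methods describe Mettl3lox/lox mice as controls of the *Mettl3* line. Those controls were given tamoxifen too, and nothing states whether the hearts labelled WT were. From these labels, loss of *Mettl3*, the Cre transgene and exposure to tamoxifen cannot be told apart in *Mettl3* KO against WT. Each genotype had 2 Pol II and 2 CTCF libraries and 1 IgG library. The study pooled the ventricles of 2 adult hearts for chromatin, and nothing states that libraries of the same genotype came from separate preparations, so that p-values measure only the spread between these libraries, which may be technical. Sex was not considered in the study's design, and the sum over the 6 peaks on the Y chromosome was 0 in all *Trdn-as* KO libraries and 223 to 326 in the Pol II libraries of WT and *Mettl3* KO hearts. Sex and the *Trdn-as* KO genotype therefore cannot be told apart. The values given here are read counts that the authors divided by DESeq2 size factors and rounded to whole numbers, called normalised signal below.

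Glycolysis splits glucose into pyruvate in the cytosol. Pyruvate is then either reduced to lactate or carried into mitochondria, where the pyruvate dehydrogenase complex converts it to acetyl-CoA for the TCA cycle. The adult heart takes most of its energy from fatty acids and uses the pyruvate dehydrogenase complex as a valve. Pyruvate dehydrogenase kinases close this valve by phosphorylating the complex and the phosphatases open it. Pol II collects at the start of transcribed genes, where it pauses before elongation, so its ChIP signal at a promoter reports bound polymerase and not the amount of mRNA.

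The Pol II libraries held about 1987566 to 4953770 reads in peaks, with *Trdn-as* KO replicate 2 the shallowest. In that library 18.6% of uniquely mapped reads fell in peaks, against 35.5% to 42.6% in the other 5. The CTCF libraries held 6789383 to 10163668 reads in peaks and the IgG libraries 273483 to 813041. After normalisation, a single read counted 0.945 to 2.04 in Pol II, 0.284 to 0.458 in CTCF and 2.55 to 6.56 in IgG libraries. At the promoter of *Trdn-as* (GRCm39 chr10:33129849-33132974), Pol II signal was 530 and 595 (WT), 503 and 491 (*Mettl3* KO) and 140 and 100 (*Trdn-as* KO), so that both *Trdn-as* KO libraries lay below the other 4. The *Mettl3* promoter had 177 and 202 (WT) and 240 and 235 (*Mettl3* KO), which does not check the deletion, since a promoter peak does not read the floxed exons. Summed Pol II signal over the promoters of 7 cardiomyocyte genes was 24452 to 26040 (WT), 24525 to 24899 (*Mettl3* KO) and 18319 to 24476 (*Trdn-as* KO). *Myh6*, the gene of alphaMHC, held the largest part, with 10654 and 11527 (WT) and 11283 and 11566 (*Mettl3* KO). The part of the transgene in it was not tested. *Ryr2* (641 and 697 against 526 and 533), *Pln* and *Actc1* lay lower in *Mettl3* KO than in WT. *Mybpc3* lay higher (1057 and 1186 against 1297 and 1215), and *Tnnt2* and *Tnni3* overlapped. The skeletal muscle genes, 2 of 5 with a promoter peak, summed to 114 to 147 over the 6 libraries, and the smooth muscle genes to 96 to 177. The 5 fibroblast genes (*Col1a1*, *Col1a2*, *Pdgfra*, *Dcn*, *Tcf21*) summed to 795 to 827 (WT), 851 to 1185 (*Trdn-as* KO) and 1556 to 1599 (*Mettl3* KO).

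RefSeq promoter windows (GRCm38.p6, 250 bases before to 50 after an annotated start) were matched by symbol for 40 of the 43 genes. The bases before the start are shown for *Pdk4*, *Slc2a1* and *Cs*. *Pdk4* was the only gene of the list whose chosen promoter peak passed the Pol II test between genotypes. At these chosen peaks, *Slc2a1* had the next largest Pol II difference in *Mettl3* KO against WT, and *Cs* had the largest CTCF difference. Capitals mark matches to the GC box GGGCGG, the letters bound by Sp-family factors, or to a core of the CTCF motif, on either strand.
Pdk4: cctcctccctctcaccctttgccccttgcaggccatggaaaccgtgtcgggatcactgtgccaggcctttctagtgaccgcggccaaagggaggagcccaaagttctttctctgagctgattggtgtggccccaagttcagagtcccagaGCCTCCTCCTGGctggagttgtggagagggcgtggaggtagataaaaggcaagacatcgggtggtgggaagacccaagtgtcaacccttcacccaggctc
Slc2a1: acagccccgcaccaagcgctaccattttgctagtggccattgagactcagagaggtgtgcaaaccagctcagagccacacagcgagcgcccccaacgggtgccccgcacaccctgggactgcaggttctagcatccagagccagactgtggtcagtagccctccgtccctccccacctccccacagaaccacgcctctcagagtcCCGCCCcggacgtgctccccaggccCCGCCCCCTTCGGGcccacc
Cs: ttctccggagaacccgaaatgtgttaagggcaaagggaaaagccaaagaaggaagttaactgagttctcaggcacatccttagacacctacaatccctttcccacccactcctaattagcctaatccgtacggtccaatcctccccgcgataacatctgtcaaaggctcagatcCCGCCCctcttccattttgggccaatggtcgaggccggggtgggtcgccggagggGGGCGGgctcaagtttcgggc
The *Pdk4* stretch is on the minus strand at chr6:5496279-5496528, *Slc2a1* on the plus strand at chr4:119108495-119108744 and *Cs* on the plus strand at chr10:128337477-128337726. *Pdk4* held the CTCF core, read on the opposite strand, from 100 bases before its start, and no GC box. *Slc2a1* held GC boxes from 45 and 20 bases before its start, both on the opposite strand, and a CTCF core from 18 bases before it that shares letters with the nearer GC box. *Cs* held GC boxes from 76 and 21 bases before its start. Over the full windows, the GC box was found in 27 of the 40 genes (67.5%, against 38.2% of 27025 genes with a window). The E-box CACGTG, which MYC and the hypoxia-inducible factors bind, was found in 7 (17.5% against 8.09%), among them *Ldha*, *Pdk2*, *Pcx* and *Ogdh*. The element AAGGTCA, bound by the estrogen-related receptors, regulators of mitochondrial genes, was found in 4 (10.0% against 5.38%), namely *Tpi1*, *Eno1*, *Ogdh* and *Got1*. The CTCF core was found in 3 (7.5% against 3.96%; *Slc2a1*, *Aldoa* and *Pdk4*), the TATA box TATAAA in 2 (5.0% against 15.7%; *Slc2a1* and *Got2*) and the NRF1 motif in 1 (2.5% against 1.07%; *Pgam1*). A gene counted if any of its windows held the motif, with 61 windows for the 40 genes and 32851 for the 27025. The 27025 genes were not limited to those with a promoter peak in this series. These are matches of letters and no sites of binding.

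In WT hearts nearly all these promoters carried Pol II. Per 1000 bases of peak, mean WT signal ranged from 5.69 at *Hk1* to 327 at *Mpc1*, with a median of 199.7 over the 40 genes, against 125.9 over the promoter peaks of all 13979 genes, and 34 of the 40 lay above that value. Scaled to RPM, reads per library of equal size, all 6 Pol II libraries lay above all 3 IgG libraries at 38 of the 40 promoters, the exceptions being *Hk1* and *Pfkm*, and the median ratio of WT Pol II to WT IgG was 17.2.

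**Figure D1:**
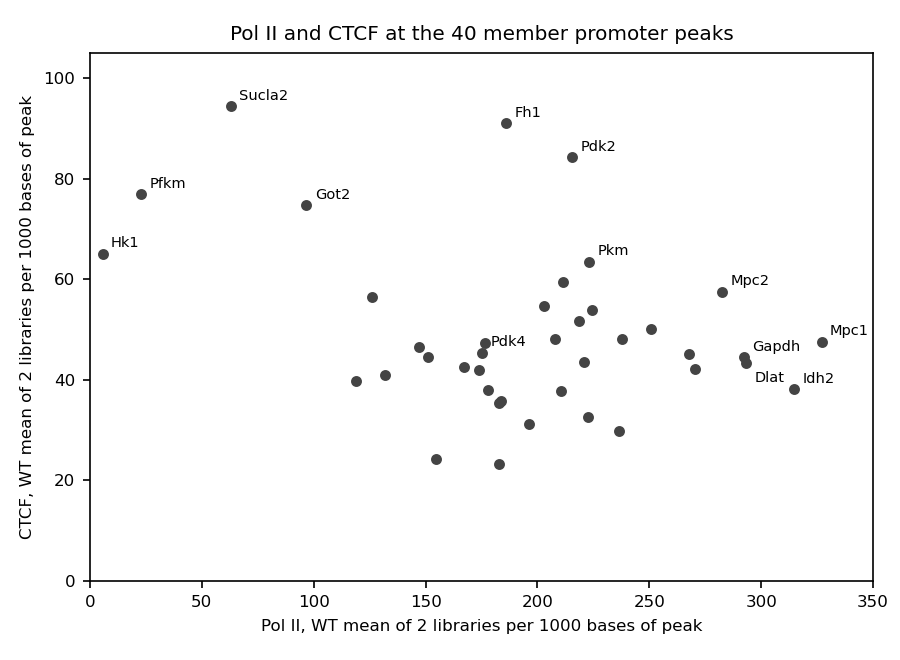
Mean WT Pol II signal (horizontal axis) against mean WT CTCF signal (vertical axis), both per 1000 bases of peak, a point for each of the 40 genes with a promoter peak. *Mpc1* lies highest for Pol II at 327 and *Sucla2* highest for CTCF at 94.5, and *Hk1* and *Pfkm* lie lowest for Pol II at 5.69 and 23.0.

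Glucose enters the cardiomyocyte through the insulin-responsive transporter GLUT4 (*Slc2a4*) and the basal transporter GLUT1 (*Slc2a1*). *Slc2a4* (chr11:69836661-69840484) had a Pol II signal of 795 and 822 (WT), 684 and 703 (*Mettl3* KO) and 859 and 643 (*Trdn-as* KO). *Slc2a1* (ENSMUSG00000028645, chr4:118965577-118966658) had 227 and 251, 353 and 325, and 298 and 228. The *Mettl3* KO libraries were the lowest but for *Trdn-as* KO replicate 2 at *Slc2a4* and the highest at *Slc2a1*. Hexokinase 2, which traps glucose as its phosphate, had 483 and 540 (WT), 485 and 543 (*Mettl3* KO) and 572 and 454 (*Trdn-as* KO), so that all 3 genotypes overlapped.

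Among the glycolytic enzymes, signal was highest at *Eno3*, the muscle enolase, with 1679 and 1730 (WT), 1568 and 1753 (*Mettl3* KO) and 1902 and 1419 (*Trdn-as* KO). Its peak is 7203 bases wide and covers 58.2% of the gene, so this sum is not a level per length. *Gapdh*, which makes the NADH of glycolysis, followed with 1268 and 1242 (WT), 1446 and 1532 (*Mettl3* KO) and 1419 and 1181 (*Trdn-as* KO). Per 1000 bases *Gapdh* led the glycolytic enzymes with 292 (WT). Peaks also covered much of the short genes *Pgam2* (100%), *Gapdh* (64.9%) and *Tpi1* (41.8%), where signal at the promoter and in the gene body was summed together.

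The mitochondrial pyruvate carrier, made of *Mpc1* and *Mpc2*, was among the most occupied entries of the pathway. *Mpc1* had 1016 and 936 (WT), 968 and 1085 (*Mettl3* KO) and 1013 and 827 (*Trdn-as* KO), and *Mpc2* had 857 and 873, 917 and 988, and 976 and 735. The genotypes overlapped at *Mpc1*, and at *Mpc2* the *Mettl3* KO libraries lay above WT. Per 1000 bases in WT, *Mpc1* (327), *Idh2* (315), *Dlat* (293), *Gapdh* (292) and *Mpc2* (283) were the 5 highest of the 40. *Dlat* encodes the acetyltransferase core of the pyruvate dehydrogenase complex and *Idh2* the NADP-dependent mitochondrial isocitrate dehydrogenase.

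**Figure D2:**
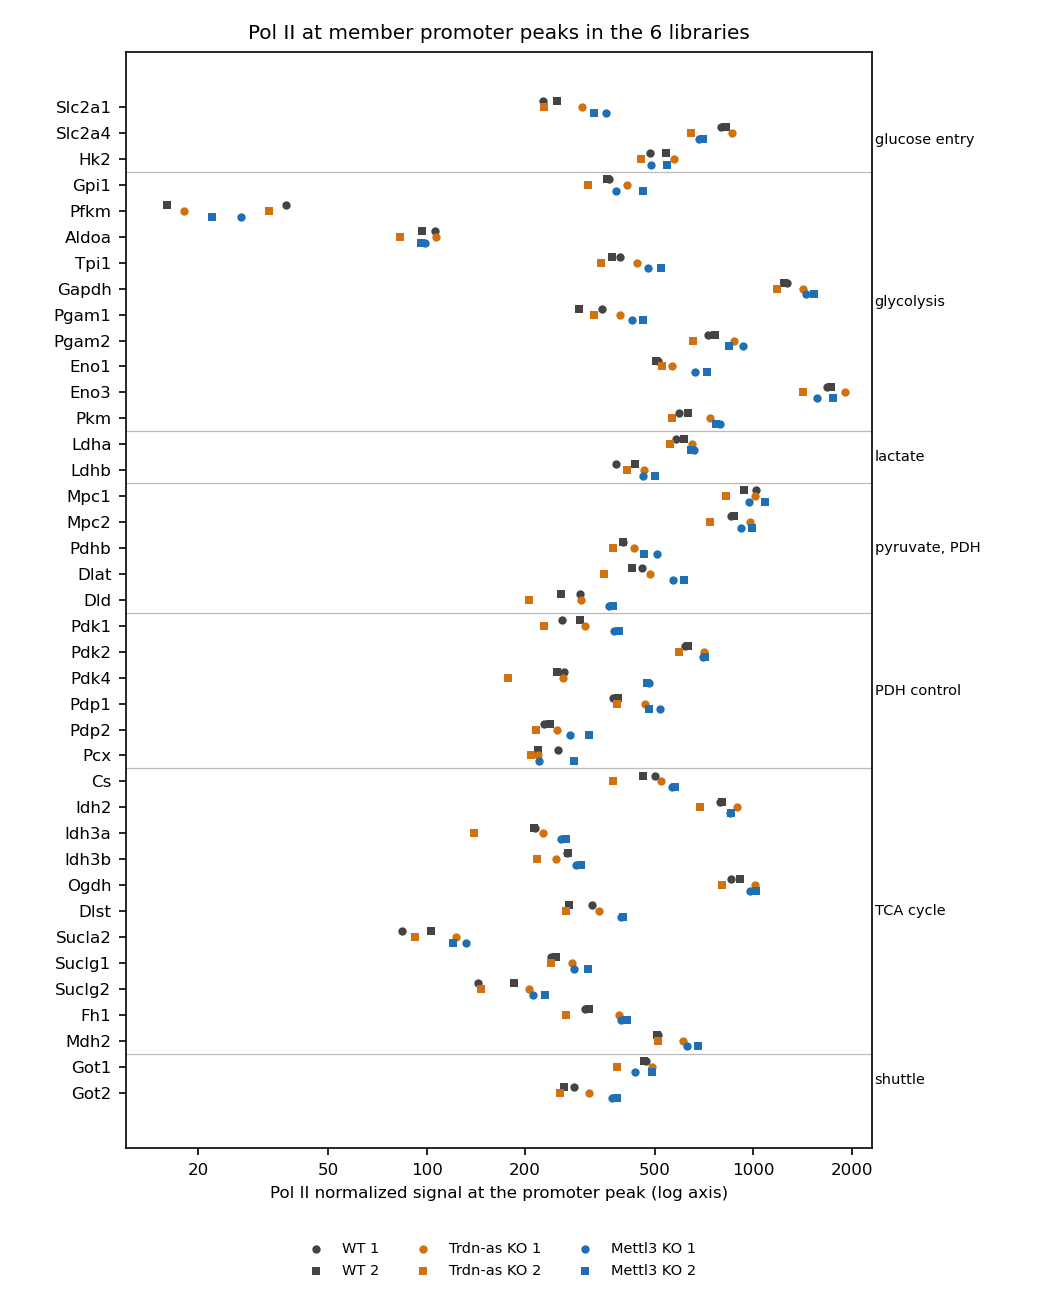
Pol II normalised signal at the promoter peak of each of the 39 tested genes in the 6 libraries, on a log axis, grouped by role, a point per library with a colour per genotype and a circle or square for replicates 1 and 2. At *Pdk4* the 2 *Mettl3* KO points (479 and 472) stand apart from the other 4, which lie between 177 and 263.

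In *Mettl3* KO against WT hearts, *Pdk4* was the only member whose chosen promoter peak passed the Pol II test. It encodes the kinase that shuts off pyruvate oxidation during fasting and fatty acid use. Its promoter peak (ENSMUSG00000019577, chr6:5495821-5497286, minus strand) spans the annotated start of the gene at its 5′ end. Signal was 263 and 251 (WT), 479 and 472 (*Mettl3* KO), and 262 and 177 (*Trdn-as* KO). The *Mettl3* KO libraries, at 475.5 ± 4.95 (SD, n = 2), lay above every other library, against 257 ± 8.49 (WT). The difference was 0.89 on the log2 scale (SE 0.19, limma on log2 of signal plus 1, adjusted p = 0.0046), a 1.85-fold higher level. It was 1 of 39 members tested that passed, beside 1.19% of all 52655 peaks tested (0.712% higher and 0.482% lower). Weaker promoter peaks of *Idh2* and *Got1*, not chosen by the rule, were called lower in *Mettl3* KO. At *Idh2* the values were 37 and 59 (WT) against 22 and 10 (log2 -1.59, limma adjusted p = 0.026). At *Got1* they were 29 and 26 against 11 and 3 (-2.04, limma adjusted p = 0.033), and 46 and 60 against 24 and 19 (-1.26, limma adjusted p = 0.049). IgG signal at the *Pdk4* peak was 46 (*Trdn-as* KO), 64 (*Mettl3* KO) and 104 (WT). The call was lost when any WT or *Mettl3* KO library was left out, with adjusted p = 0.67 without WT replicate 1, 0.456 without WT replicate 2, 0.342 without *Mettl3* KO replicate 1 and 0.616 without *Mettl3* KO replicate 2 (limma), while the log2 difference stayed between 0.73 and 0.92 under 19 settings. Those 4 fits called 0.0238%, 0.0255%, 0.00198% and 0.0% of all peaks, far under the 1.19% above, so a lost call there says little about *Pdk4* itself. The call was also lost with no filter on low peaks (adjusted p = 0.375, 0.00695% of all peaks called), with library sizes from uniquely mapped reads (1.0, 0.0587% called) and without the variance trend of limma (0.402, 0.0038% called).

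Most other members leaned the same way without passing the test. Of the 39, 34 (87.2%) had a log2 difference above 0, with a range of -0.22 to 0.89. The median was 0.28, and both *Mettl3* KO libraries lay above both WT libraries at 31 (79.5%). Over all tested peaks these figures were 54.9%, 0.08 and 31.2%. Over the promoter peak with the most Pol II of every gene, however, 83.1% lay above 0, with a median of 0.26, and 8261 of 12343 had both *Mettl3* KO libraries above both WT libraries, so that the members were close to promoters at large. At an unadjusted limma p under 0.05 there were 16 members (41.0%), against 15.5% of all peaks and 25.5% of the promoter peaks of all genes. Every library of the 3 genotypes entered the shared estimate of error, and without *Trdn-as* KO replicate 1 or replicate 2 the count of called members was 18 and 19, and with the WT and *Mettl3* KO libraries alone it was 18. These fits called 9.71%, 9.97% and 10.3% of all peaks, so the counts rose throughout the series. Under library sizes that equalise the sum over all peaks, 27 of 39 members lay above 0, with a median of 0.12 where the median of all peaks moved to -0.08, and 32 members lay above the median of all peaks in both scalings. Where the median log2 ratio was set to 0, *Slc2a1*, *Slc2a4*, *Pgam1* and *Eno1* passed beside *Pdk4*, *Slc2a4* as lower in *Mettl3* KO. That fit called 4.97% of all peaks (2.76% higher and 2.2% lower). With equal sums, *Slc2a4* (-0.38, limma adjusted p = 0.00058) and *Eno3* (-0.20, limma adjusted p = 0.017) passed as lower and *Eno1* and *Pdk4* as higher. There 1.63% of all peaks were called higher and 2.77% lower.

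**Figure D3:**
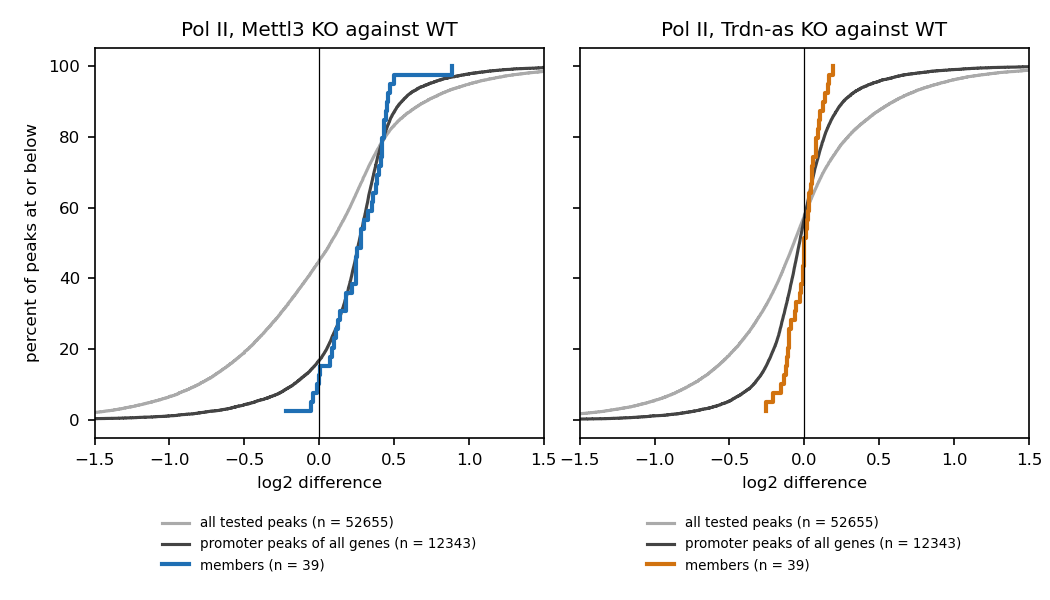
Cumulative distribution of log2 Pol II differences (horizontal axis) as the percent of peaks at or below each value, over all tested peaks, over the promoter peak of every gene and over the 39 members, for each knockout against WT. In *Mettl3* KO against WT the members (median 0.28) lie with the promoter peaks of all genes (median 0.26) and above all tested peaks (median 0.08).

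By role, the TCA cycle genes all lay on the same side at their chosen promoter peaks. Each of the 11 had both *Mettl3* KO libraries above both WT libraries, with a median log2 difference of 0.30, and none passed the test. Citrate synthase (*Cs*), which condenses acetyl-CoA with oxaloacetate, had 500 and 459 (WT) and 564 and 575 (*Mettl3* KO). *Idh3a*, the catalytic subunit of the NAD-dependent isocitrate dehydrogenase, had 214 and 213 against 258 and 267. Fumarase (*Fh1*) had 305 and 313 against 393 and 410, a log2 difference of 0.38, and the mitochondrial malate dehydrogenase (*Mdh2*) had 509 and 506 against 626 and 677, a log2 difference of 0.36. The succinyl-CoA ligase genes *Sucla2*, *Suclg1* and *Suclg2*, whose enzyme makes a nucleoside triphosphate directly in the cycle, had 84 and 103 against 132 and 120, 240 and 249 against 283 and 311, and 144 and 185 against 212 and 230. *Dlst*, the succinyltransferase of the oxoglutarate dehydrogenase complex, had 321 and 273 against 393 and 399, and *Idh2* had 791 and 801 against 850 and 855. At the chosen peak of each of these genes both *Mettl3* KO libraries lay above both WT libraries. They did so at 31.2% of all tested peaks and at 66.9% of the promoter peaks of all genes. The other tested promoter peaks of *Idh2* went the other way, from -1.59 to -0.23 on the log2 scale.

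The 6 genes that control the pyruvate dehydrogenase complex or bypass it had the highest median of the roles, 0.36 on the log2 scale, and all lay above 0. *Pdk1*, a kinase induced by hypoxia, had 259 and 295 (WT) and 374 and 387 (*Mettl3* KO), a log2 difference of 0.46. *Pdk2*, the kinase most widely expressed, had 616 and 630 against 700 and 712. The phosphatase *Pdp1* had 372 and 384 against 518 and 479, a log2 difference of 0.40, so that the *Mettl3* KO libraries lay above WT at kinases and phosphatases alike. The complex's own genes also lay higher in *Mettl3* KO, with 456 and 426 against 566 and 613 at *Dlat* (0.42 on the log2 scale, limma adjusted p = 0.196), 294 and 258 against 362 and 373 at *Dld*, and 399 and 400 against 507 and 463 at *Pdhb*. Pyruvate carboxylase (*Pcx*), which feeds oxaloacetate to the cycle, had 252 and 219 against 220 and 283, and its groups overlapped. The malate-aspartate shuttle passes the electrons of cytosolic NADH into mitochondria. Of its transaminases, the mitochondrial *Got2* had 283 and 264 against 368 and 383 (0.46 on the log2 scale). The cytosolic *Got1* had 470 and 463 against 434 and 490 at its chosen peak, where the groups overlapped. Its weaker peaks called lower are given above.

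In glycolysis the values differed between isoforms, which were not tested against each other. *Eno1*, the ubiquitous enolase, had 509 and 505 (WT) and 661 and 723 (*Mettl3* KO) (log2 0.45, SE 0.15, limma adjusted p = 0.124), while *Eno3* differed by -0.04. *Pgam1* (chr19:41899713-41901505), the non-muscle phosphoglycerate mutase, had 345 and 293 against 426 and 458 (log2 0.47, SE 0.17, limma adjusted p = 0.16), and its muscle counterpart *Pgam2* had 724 and 761 against 929 and 842. For *Slc2a1* the difference was 0.50 (SE 0.19, limma adjusted p = 0.17), 1.42-fold, and for *Slc2a4* it was -0.22 (SE 0.14, limma adjusted p = 0.46). *Slc2a4* was the only one of the 39 members with both *Mettl3* KO libraries below both WT libraries, as 19.5% of all tested peaks had. *Pkm*, the pyruvate kinase of muscle and proliferating cells, had 594 and 630 against 793 and 770, and *Tpi1* had 391 and 370 against 476 and 522. *Aldoa*, with 106 and 97 against 99 and 96, and *Hk2* overlapped between the genotypes. The lactate dehydrogenase genes had 581 and 615 against 658 and 645 at *Ldha* and 379 and 433 against 459 and 501 at *Ldhb*, both without overlap and without passing the test.

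Ratios within a library do not depend on how libraries were scaled. They were taken per 1000 bases for 8 pairs of genes that share a step, chosen after their values were seen. The peaks of a pair can cover unlike parts of their genes, with 2.57% at *Slc2a1* and 41.7% at *Slc2a4*, and 14.3% at *Eno1* and 58.2% at *Eno3*. The part of gene body signal in the ratios was not tested, and no other gene pairs were read as a background. The ratio of *Slc2a1* to *Slc2a4* was 1.01 and 1.08 (WT), 1.82 and 1.63 (*Mettl3* KO) and 1.23 and 1.25 (*Trdn-as* KO). *Eno1* to *Eno3* was 0.966 and 0.93, 1.34 and 1.31, and 0.943 and 1.18. The ratio of *Pdk4* to *Pdk2* was 0.842 and 0.786 (WT), 1.35 and 1.31 (*Mettl3* KO) and 0.73 and 0.592 (*Trdn-as* KO). In these 3 pairs the *Mettl3* KO libraries lay above all others, as they did for *Pdk1* to *Pdk2*, with 0.933 and 0.949 (*Mettl3* KO), 0.734 and 0.817 (WT) and 0.755 and 0.675 (*Trdn-as* KO). The ratio of *Ldha* to *Ldhb*, the lactate dehydrogenase subunits that predominate in glycolytic and in oxidative tissue, was 1.43 and 1.32, 1.33 and 1.2, and 1.31 and 1.26. There the *Mettl3* KO libraries overlapped the others, and both *Trdn-as* KO ratios lay just below both WT ratios. For *Pdp1* to *Pdp2*, at 1.58 and 1.56, 1.84 and 1.48, and 1.81 and 1.73, the *Mettl3* KO libraries overlapped the others too. Both *Trdn-as* KO ratios lay above both WT ratios there. All 3 genotypes overlapped for *Pgam1* to *Pgam2*, at 1.27 and 1.03, 1.23 and 1.46, and 1.2 and 1.34.

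**Figure D4:**
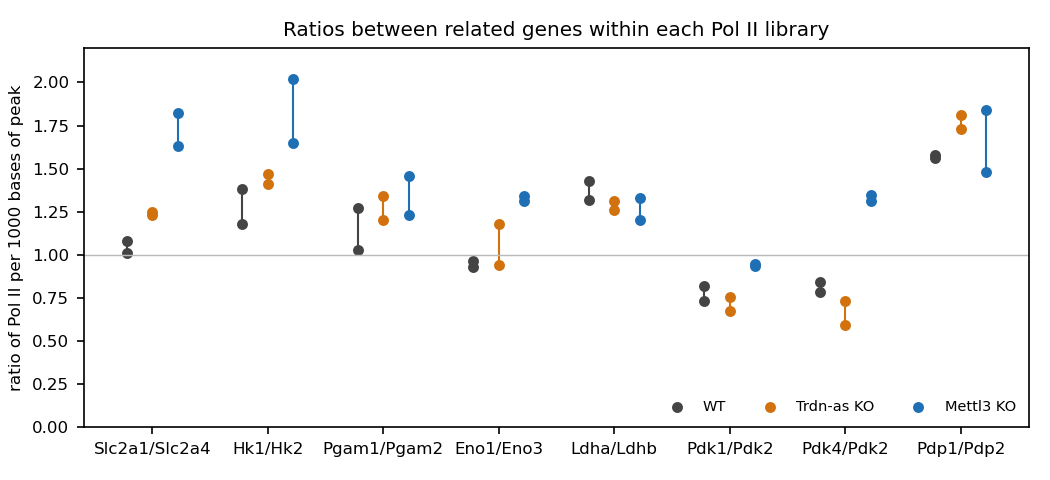
Ratio of Pol II signal per 1000 bases between genes that share a step, a point per library and a line joining the 2 libraries of a genotype, with *Hk1* read at the peak of its internal start. *Slc2a1* to *Slc2a4*, *Hk1* to *Hk2*, *Eno1* to *Eno3*, *Pdk1* to *Pdk2* and *Pdk4* to *Pdk2* are highest in the 2 *Mettl3* KO libraries. For *Pgam1* to *Pgam2*, *Ldha* to *Ldhb* and *Pdp1* to *Pdp2* the *Mettl3* KO libraries overlap the others.

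Markers of other ventricular cells moved with the *Mettl3* KO genotype. Pol II signal rose at 4 of the 5 fibroblast promoters in *Mettl3* KO against WT, beside 0.712% of all peaks called higher. The rise was 1.19 at *Col1a1*, 1.09 at *Col1a2*, 1.12 at *Pdgfra* and 0.74 at *Tcf21* on the log2 scale (limma, adjusted p from 0.00019 to 0.021). At *Dcn* the difference was 0.68 (limma adjusted p = 0.089). Leukocyte genes summed to 178 to 205 (WT) and 212 to 248 (*Mettl3* KO). Of the 4 tested, *Spi1*, a transcription factor of myeloid cells, rose by 1.19 (limma adjusted p = 0.023), and *Cd68*, a macrophage gene, differed by -0.41 (limma adjusted p = 0.44). Endothelial genes summed to 1074 to 1127 (WT) and 995 to 1019, and adipocyte genes to 1336 to 1453 and 1099 to 1108. In *Trdn-as* KO against *Mettl3* KO, 3 of the 5 fibroblast and 1 of the 7 cardiomyocyte genes were called lower for Pol II, beside 1.15% of all peaks. None of the endothelial, leukocyte or adipocyte genes tested was called there. In bulk chromatin, more cells of a type and more Pol II per cell cannot be told apart. The part of these cells in the values of *Pdk4*, *Slc2a1*, *Pgam1* and *Eno1* was not tested.

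In *Trdn-as* KO against WT hearts no member was called for Pol II. None of the 39 passed the limma test, beside 0.304% of all peaks, and none had an unadjusted p under 0.05, against 7.7% of all peaks. The log2 differences ranged from -0.26 at *Idh3a* (214 and 213 for WT, 227 and 140 for *Trdn-as* KO) to 0.19 at *Sucla2* (84 and 103, 123 and 92). Their median was 0.0, and 19 (48.7%) lay above 0, against 42.2% of all peaks and 43.0% of the promoter peaks of all genes. Both *Trdn-as* KO libraries lay above both WT libraries at *Eno1* (509 and 505 against 563 and 525) and *Mdh2* (509 and 506 against 611 and 511), that is at 2 of 39 members against 12.9% of all peaks. They lay below both at *Idh3b* (268 and 271 against 249 and 218), 1 of 39 against 19.1%. With library sizes from uniquely mapped reads, the median over all peaks moved to -0.67 and that of the members to -0.59, with 0 above 0. The count above 0 was 28 with the median log2 ratio set to 0 and 26 with equal sums, and it was 6 without *Trdn-as* KO replicate 1 and 36 without *Trdn-as* KO replicate 2. At *Pdk4* the difference was -0.25 (SE 0.19, limma adjusted p = 0.82).

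The spread between the *Trdn-as* KO libraries limits this comparison. Of the 7 cardiomyocyte genes, *Myh6*, the adult myosin heavy chain, fell by 0.35 in *Trdn-as* KO (log2, limma adjusted p = 0.029). It was the only call, beside 0.304% of all peaks, while the other 6 ran from -0.35 at *Tnnt2* (limma adjusted p = 0.24) to 0.11 at *Tnni3*. Replicate 2 lay below replicate 1 at 39 of the 40 members, and the median gap between the 2 libraries was 25.3% of their mean, against 5.61% in WT and 7.83% in *Mettl3* KO. Without *Trdn-as* KO replicate 1, with the remaining library assumed to vary like the other groups, 5 members passed (*Slc2a4*, *Eno3*, *Pdk4*, *Cs* and *Idh3a*), with -0.54 at *Pdk4* (limma adjusted p = 0.024). That fit called 4.3% of all peaks, 4.24% as lower.

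**Figure D5:**
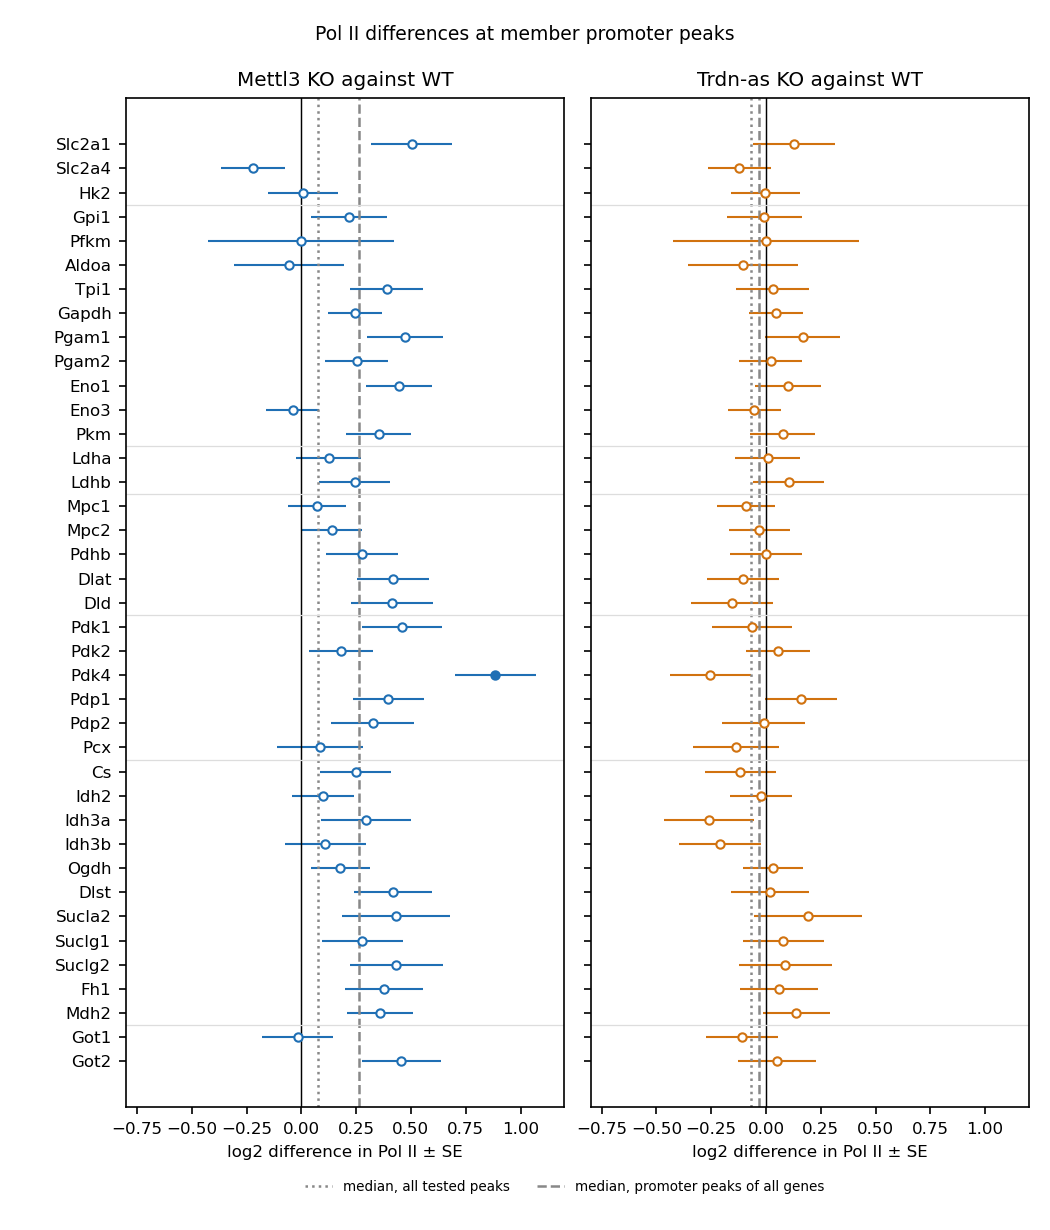
Log2 Pol II difference of each of the 39 tested members with its standard error, in *Mettl3* KO against WT and in *Trdn-as* KO against WT. *Pdk4*, at 0.89 (*Mettl3* KO), is the only filled (called) point, and *Slc2a4* lies lowest in *Mettl3* KO at -0.22.

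Set directly against each other, the knockouts differed at *Pdk4*, with 219.5 ± 60.1 (SD, n = 2) in *Trdn-as* KO and 475.5 ± 4.95 (*Mettl3* KO). The log2 difference was -1.14 (SE 0.19, limma adjusted p = 7.96e-05), a ratio of 0.454. It was the only member called of 39, beside 1.5% of all peaks (0.355% higher and 1.15% lower). The next lowest differences did not pass. They were -0.57 at *Dld* (297 and 206 against 362 and 373) and -0.56 at *Idh3a* (227 and 140 against 258 and 267). Nor did *Pdk1* (306 and 228 against 374 and 387) or *Dlat* (482 and 348 against 566 and 613, -0.52) pass. Both *Trdn-as* KO libraries lay below both *Mettl3* KO libraries at 23 of 39 members (59.0%), against 29.9% of all peaks and 56.4% of the promoter peaks of all genes, and above them at 0, against 13.9% of all peaks, and the members' median of -0.24 compares with -0.16 over all peaks and -0.30 over the promoter peak of every gene. The *Pdk4* call was lost without *Mettl3* KO replicate 1 (limma adjusted p = 0.247), *Mettl3* KO replicate 2 (0.41) and WT replicate 1 (0.0535), in fits that called 0.0436%, 0.0217% and 0.133% of all peaks, while its log2 difference stayed between -1.15 and -1.13. It was also lost with no filter (0.179, 0.0169% of all peaks called), with library sizes from uniquely mapped reads (0.114, 0.428% called), with only the compared genotypes (0.058, 0.137% called) and without the variance trend (0.304, 0.0228% called). Without *Trdn-as* KO replicate 1, 29 members were called lower, as were 18.7% of all peaks. The lean of the members depended on the scaling, with 2 of 39 above 0 as deposited (39.3% of all peaks and 14.9% of the promoter peaks of all genes), 12 with the median log2 ratio set to 0 and 15 with equal sums, where *Slc2a4* (0.31, limma adjusted p = 0.00795) and *Eno3* (0.20, limma adjusted p = 0.025) passed as higher in *Trdn-as* KO and *Dlat* and *Pdk4* as lower, in a fit that called 2.95% of all peaks.

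No member was called for CTCF. In WT, CTCF signal per 1000 bases had a median of 45.25 over the 40 promoters, against 42.35 over the promoter peak of every gene, and all 6 CTCF libraries lay above all 3 IgG libraries in RPM at each of the 40. The median ratio of WT CTCF to WT IgG was 5.33 (3.16 to 16.3), against 5.67 over all genes. Signal summed over the peak was highest at *Pdk2*, with 253 and 234 (WT), 258 and 245 (*Mettl3* KO) and 257 and 242 (*Trdn-as* KO), and at *Slc2a4*, with 229 and 225, 230 and 228, and 236 and 237. The genotypes overlapped at *Pdk2*, and at *Slc2a4* both *Trdn-as* KO libraries lay just above the other 4. At *Pdk4*, CTCF signal was 67 and 66 (WT), 64 and 64 (*Mettl3* KO) and 60 and 57 (*Trdn-as* KO), so the *Mettl3* KO libraries, which were highest for Pol II, lay between the others for CTCF.

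In *Trdn-as* KO against WT none of 40 members passed for CTCF, beside 0.587% of all 60649 peaks tested, and 3 (7.5%) had an unadjusted limma p under 0.05, against 10.2% of all peaks. The largest difference was at *Cs* (GRCm39 chr10:128172534-128175250), with 131 and 126 (WT), 98 and 99 (*Trdn-as* KO) and 111 and 110 (*Mettl3* KO). It was -0.38 on the log2 scale (SE 0.09, limma adjusted p = 0.092), and the 3 genotypes did not overlap. Pol II at the same peak was 500 and 459 (WT) and 523 and 373 (*Trdn-as* KO). *Cs* passed for CTCF where libraries were scaled to an equal sum or to a median log2 ratio of 0, in fits that called 0.78% and 0.773% of all peaks. Both *Trdn-as* KO libraries lay below both WT libraries at 13 of 40 members (32.5%), against 13.1% of all peaks and 18.8% of the promoter peaks of all genes. They lay above at 2 (5.0%), against 19.4% and 14.4%.

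In *Mettl3* KO against WT no member passed for CTCF, beside 0.185% of all peaks, and 5 (12.5%) had an unadjusted limma p under 0.05, against 15.7%. The lowest values were at *Hk1* (-0.35, limma adjusted p = 0.26) and *Gpi1* (-0.31, adjusted p = 0.172), and the highest at *Pcx* (0.27). At the peak over the start of each gene, in place of its promoter peak, CTCF differed by 0.06 at *Hk1* and 0.01 at *Gpi1*. The libraries of the genotypes did not overlap at 15 members (37.5%) lower in *Mettl3* KO, against 27.7% of all peaks and 29.7% of the promoter peaks of all genes. They did not overlap at 5 (12.5%) higher, against 15.8% and 13.8%. Between the knockouts no member passed, beside 1.37% of all peaks, and 6 (15.0%) had an unadjusted limma p under 0.05, against 18.8%. There the log2 differences ran from -0.25 at *Pgam1* to 0.36 at *Gpi1*, where the peak over the start differed by -0.03. The libraries did not overlap at 11 members (27.5%) higher and 11 (27.5%) lower in *Trdn-as* KO. These shares were 34.7% and 12.6% of all peaks, and 27.3% and 13.0% of the promoter peaks of all genes.

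Peak choice mattered at 3 genes whose annotated promoter peak lies off their well-supported transcript start. For these, a peak over that start was read as well, chosen after the values were seen. The *Hk1* promoter peak (chr10:62216657-62217271) held 4 and 3 (WT) and 4 and 5 (*Mettl3* KO), at the level of a few reads, whereas the peak at the start of another *Hk1* transcript, 39366 bases into the gene (chr10:62174029-62176665), held 452 and 435 (WT), 666 and 610 (*Mettl3* KO) and 547 and 454 (*Trdn-as* KO). The difference in *Mettl3* KO was 0.52 (SE 0.16, limma adjusted p = 0.073). *Hk1* is the housekeeping hexokinase, and its ratio to *Hk2* per 1000 bases was 1.38 and 1.18 (WT), 2.02 and 1.65 (*Mettl3* KO) and 1.41 and 1.47 (*Trdn-as* KO). *Pfkm*, the muscle phosphofructokinase and a main control point of glycolysis, had 215 and 271 (WT), 301 and 309 (*Mettl3* KO) and 312 and 250 (*Trdn-as* KO) at chr15:98006016-98007606, against 37 and 16, 27 and 22, and 18 and 33 at its annotated peak. *Gpi1*, the isomerase that turns glucose phosphate into fructose phosphate, had 340 and 338 (WT), 405 and 437 (*Mettl3* KO) and 376 and 299 (*Trdn-as* KO) at chr7:33928830-33930333. None passed in any comparison, so no count of called members changed.

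For a pair of the members with no promoter peak of their own, a head-to-head neighbour carries the peak. The start of *Pdhx*, which anchors *Dld* in the pyruvate dehydrogenase complex, lies 162 bases from that of *Apip* (distance on GRCm38), whose peak (chr2:102903285-102904909) had 353 and 333 (WT), 408 and 448 (*Mettl3* KO) and 403 and 297 (*Trdn-as* KO). The start of *Mdh1*, the cytosolic malate dehydrogenase of the shuttle, lies 132 bases from that of *Wdpcp*, whose peak (chr11:21518801-21522637) had 764 and 759, 806 and 800, and 763 and 641. Neither peak passed the limma test, and the part of each gene of a pair in such a peak was not tested.

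A further 45 genes of the pathway (other isoforms and subunits, succinate dehydrogenase, aconitases, malic enzymes and mitochondrial carriers) gave 37 promoter peaks, 35 of which were tested for Pol II. In *Mettl3* KO against WT, 33 of the 35 lay above 0, with a median of 0.27, against 83.1% and 0.26 over the promoter peaks of all genes, and 1 was called, beside 1.19% of all peaks. This was *Pfkp*, the platelet-type phosphofructokinase, with 178 and 196 (WT), 300 and 314 (*Mettl3* KO) and 228 and 177 (*Trdn-as* KO) (log2 0.71, SE 0.20, limma adjusted p = 0.0486). *Ogdhl*, a homologue of the oxoglutarate dehydrogenase *Ogdh*, was the only 1 of the 35 called in *Trdn-as* KO against WT, beside 0.304% of all peaks. It had 63 and 62 (WT), 73 and 66 (*Mettl3* KO) and 16 and 16 (*Trdn-as* KO) (log2 -1.90, SE 0.33, limma adjusted p = 0.00042). *Ogdh* itself, the member on the list, had 854 and 912, 978 and 1020, and 1014 and 804. For CTCF, 34 of these further genes were tested, and *Ogdhl* between the knockouts was the only call (log2 -1.44, limma adjusted p = 0.0494), beside 1.37% of all peaks.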

How the data were processed

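Pol II, CTCF and IgG ChIP-seq of adult mouse ventricles was analysed from 15 libraries. Input libraries were not analysed here. According to the labels and the study's methods, the authors used Trimmomatic 0.39 for trimming and STAR 2.7.11b for alignment to GRCm39, removed duplicates with Picard 3.1.1, called peaks with MACS and merged them across samples. Reads in peaks were then counted with featureCounts and normalised with DESeq2 1.36.0 by the authors, who assigned peaks to the promoter of the nearest gene. The deposited values are this normalised signal, which the authors rounded to whole numbers, so that no count model was fitted. The value of a read and the reads in peaks of each library were estimated from the steps between low values, and were tested on simulated data, as was the test below.

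Each antibody was fitted on its own with limma 3.58.1 (R 4.3.3) on log2(signal + 1) with a variance trend, over the 6 libraries of the 3 genotypes, for peaks that reached 10 in 2 or more libraries. Tests were two-sided, p-values were adjusted by Benjamini-Hochberg over all peaks tested, and a peak was called at an adjusted p below 0.05. The pseudocount understates the fold of low peaks. An exact permutation test of 2 against 2 libraries cannot go below p = 0.333 and was not used. Depth differed between libraries, and estimates cover counting error only in so far as replicates show it. Replicate numbers did not pair the libraries, and the block is given with the dependence on processing.

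Of the 40 members with a promoter peak, *Hk1* failed the filter for Pol II, and all 40 passed for CTCF. The rule for naming took 34 members, namely every member called, up to 3 in each direction per comparison with the largest difference among those whose libraries did not overlap, the 5 with the highest and 3 with the lowest WT Pol II per 1000 bases, the 3 with the highest WT CTCF and the regulated steps of the pathway, and others are named as examples of their group. Their roles, the further pathway genes and the cell type markers were set as lists. The members and lists were chosen with earlier results of these data known. The alternatives were other pseudocounts, filters, library scalings, error models, peak choices, thresholds and fits without a library. Promoter windows and motifs come from RefSeq (GRCm38.p6), and coordinates of peaks are on GRCm39. Figures were drawn with matplotlib 3.10.9 in Python 3.11.15.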

Additional observations from a re-analysis of the deposited data

Results flagged for a closer look

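The effects of the 2 knockouts differed, by the limma test of *Trdn-as* KO against *Mettl3* KO that shares the WT libraries of both, at *Pdk4* for Pol II (log2 difference -1.14, adjusted p = 7.96e-05) and at *Ogdhl* for Pol II (-2.05, adjusted p = 7.15e-05) and for CTCF (-1.44, adjusted p = 0.0494). At *Ogdhl*, CTCF signal was 10 and 9 (WT), 10 and 9 (*Mettl3* KO) and 2 and 4 (*Trdn-as* KO), values of few reads.

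At 3 members every *Trdn-as* KO library lay below, and every *Mettl3* KO library above, both WT libraries, or the reverse, while the test of the difference did not pass. These were *Idh3b* for Pol II (-0.319 on the log2 scale, limma adjusted p = 0.36), *Hk2* for CTCF (-0.172, limma adjusted p = 0.282) and *Pkm* for CTCF (-0.102, limma adjusted p = 0.489). Such an order was found at 3.94% of all tested peaks for Pol II and 3.72% for CTCF, against 1 of 39 and 2 of 40 members. With 2 libraries a group, no group was searched for a library far from the others.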

How the results depend on the processing

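For *Mettl3* KO against WT, 1 member was called for Pol II, and 0 were called with no filter (0.00695% of all peaks called), 0 with uniquely mapped reads as library size (0.0587%), 0 with no variance trend (0.0038%), 5 with the median log2 ratio set to 0 (4.97%), 4 with an equal sum over all peaks (4.41%) and 18 with only the compared genotypes (10.3%), against 1.19% as reported. Leaving out a library gave 0 to 19 (0.0% to 9.97%). For *Trdn-as* KO against *Mettl3* KO, 1 member was called, and 0 with no filter (0.0169%), 0 with uniquely mapped reads (0.428%), 0 with only the compared genotypes (0.137%), 0 with no variance trend (0.0228%), 2 with the median log2 ratio set to 0 (*Dlat* and *Pdk4*; 3.0% of all peaks) and 4 with an equal sum (*Slc2a4*, *Eno3*, *Dlat* and *Pdk4*; 2.95%), against 1.5% as reported. Leaving out a library gave 0 to 29 (0.0217% to 19.3%). For *Trdn-as* KO against WT, no member was called for Pol II, and 0 to 5 when a library was left out (0.0338% to 4.3%, against 0.304%). For CTCF in *Trdn-as* KO against WT, where none was called, 1 member was called with the median log2 ratio set to 0 (0.773% of all peaks), 1 with an equal sum (0.78%) and 1 with the replicate block crossed (0.829%), a setting chosen after seeing the data, against 0.587%. The cause of these shifts was not tested. *Eno3* for Pol II between the knockouts turned from -0.01 to 0.20 under the equal sum.

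Pseudocounts of 0.5 and 5, a threshold of 0.01, the sum of all promoter peaks, leaving out X and Y and the start peaks of 3 genes (chosen after seeing the data) left each count of called members within 1.5 times. With the replicate number as a block, 0, 1 and 1 members were called for Pol II in *Trdn-as* KO against WT, *Mettl3* KO against WT and *Trdn-as* KO against *Mettl3* KO. Same-numbered Pol II libraries did not deviate together (correlations of -0.0045, -0.00023 and -0.0096), so the numbers do not pair them. For CTCF the correlations were -0.24 in *Trdn-as* KO and WT, the value that prompted the crossed block, and 0.0059 and -0.0095 in the other pairs. For CTCF the block moved the calls over all peaks from 112 to 2 in *Mettl3* KO against WT. Of the values of the members picked by the naming rule, which leaves out some members, 3246 kept their call and side, 78 gained a call, 14 lost it, 204 uncalled values changed sign, and 1 uncalled value, that of *Eno3* given above, changed sign and was then called. With 2 libraries a group and the *Trdn-as* KO libraries far apart, differences of the size of most members here could not be told from the spread.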
